A study of Mus musculus with 78 samples.

Results

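Lungs of 8 mice kept awake for 12 h from lights on were compared with lungs of 9 mice left to sleep over the same 12 h. These 17 arrays, 1 per mouse, are those of 78 lung arrays in the series that carry the label of 12 h sleep deprivation or 12 h sleep. All were male C57BL/6 J mice about 10 weeks old, held in a cycle of 12 h light with food given only in the dark period for 14 days beforehand. Deprivation was by gentle handling, which interrupts sleep whenever a mouse settles, and sleeping mice were left undisturbed and killed at the same clock time, so both groups were sampled at lights off with the light period behind them and without food since the dark. The comparison holds the hour of the day fixed and varies behavioural state. Wakefulness and the handling that enforced it cannot be told apart.

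Lung tissue holds alveolar epithelium, airway epithelium, a dense capillary bed, smooth muscle of airways and vessels, and blood cells that were in the vessels at death. Its cells carry a circadian clock, in which a pair of activators, Arntl with Clock or Npas2, drives genes whose products (Per, Cry and Ciart) then repress those activators. Enforced wakefulness is known to shift clock genes, chaperones and circulating cells in several tissues. In whole lung, fewer cells of a type and less RNA per cell cannot be told apart.

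Conditions were used as labelled, but 4 of the 17 arrays need a caution. Array numbers run through the conditions in blocks. An order of conditions was assumed here that the labels do not state. Under it, arrays 24 and 81 (labelled sleep-deprived) and 15 and 32 (labelled sleeping) have numbers that fall on another condition. As labelled, arrays 15, 24 and 32 each begin an unbroken block of their own condition. The number just before 24 is labelled 9 h sleep deprivation. Those just before 15 and 32 are labelled 9 h sleep, and that just before 81 is labelled 6 h sleep. Each of the 17 arrays was set against the mean of every group over the 200 probe sets that differed most between groups among the other arrays without such a conflict. The distance is the root mean square difference in log2 intensity over these probe sets. All 13 arrays without a conflict were nearest to the group of their label. Of the 4 others, array 81 was nearest to mice that slept 6 h, with a distance of 0.155 against 0.753 to its own label. Array 24 was nearest to mice deprived for 9 h (0.171 against 0.217) and array 32 to mice that slept for 9 h (0.203 against 0.396). Array 15 stayed nearest to its label, at 0.291 against 0.297 for the next group. Separately, array 27, labelled sleep-deprived, had T cell genes at a mean level of 2.73 above the average of the 17 mice. The main counts and the values that these arrays move most are therefore also given without the 4 arrays or without array 27. The arrays fall into 2 runs of numbers, with 4 sleep-deprived and 5 sleeping mice in the first and 4 of each in the second. Array 81 was put in the first run by its place among the samples, as its number is not consecutive with the others there. The labels do not say whether such a run was one round of processing. Lung identity was plain in both groups. Surfactant protein Sftpa1 averaged 13.19 and 13.15 in sleep-deprived and sleeping mice, and the alveolar claudin Cldn18 12.61 and 12.64, near the top of the range of the arrays, which ends at 13.85.

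After 12 h, 23 of 18820 genes (0.122%) differed between sleep-deprived and sleeping mice, 8 higher in sleep-deprived mice (0.0425%) and 15 lower (0.0797%). The measure is log2 intensity, on which a difference of 1 is a 2-fold change, and the test was limma with Benjamini-Hochberg adjustment over all probe sets, with genes called at an adjusted p under 0.01. The genes that rose were Acta2, Alox12e, Lrp2, Vcan, Calr, Itga7, H2-T24 and Ccl9. Those that fell were Scel, BC051142, Susd4, Pir, Robo1, Nrgn, Mpig6b, Alox12, Ciart, Wnt10b, Mpv17l, Itga2b, Mfsd2b, Plxna4 and Wfdc10. The called differences were between 0.21 and 1.03 in size with a median of 0.50, against a median size of 0.05 over all genes. At an adjusted p under 0.05 the count was 81, with 31 higher and 50 lower, and 1751 genes had an unadjusted p under 0.05.

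The ranges of the 8 sleep-deprived and 9 sleeping mice did not overlap for 51 genes (0.271%), and 8 of the 23 called genes were among them. Without arrays 24, 81, 15 and 32 this held for 320 genes (1.7%) and for 16 of the 23, while 18 genes were called (0.0956%), 12 of them from the 23. All 23 kept their direction, and their adjusted p then lay between 0.000358 and 0.0539. Without array 27, 4 genes were called (0.0213%), Alox12e, Scel, Acta2 and Lrp2. The 23 then had limma adjusted p-values from 0.000363 to 0.0377, with differences between 0.89 and 1.07 times their full size. No other single array was left out, so the part of this mouse cannot be told from that of 1 mouse fewer. Within the first run and within the second, all 23 genes kept their direction. The runs are parts of the arrays on which the 23 were chosen, so the kept directions give no separate support. Limma called 0 genes in either run alone, with 1926 and 1919 at an unadjusted p under 0.05.

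**Figure D1:**
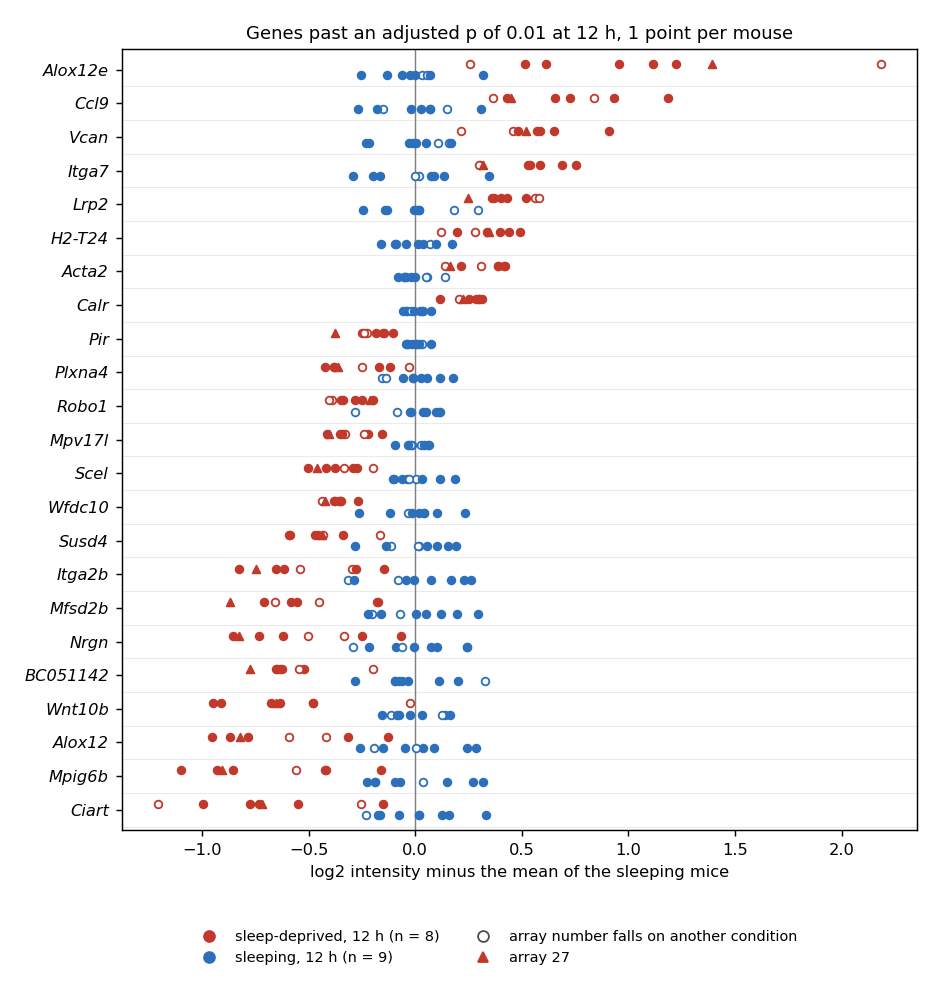
Each row is 1 of the 23 genes called at 12 h and each point 1 mouse, with log2 intensity on the x axis given relative to the mean of the sleeping mice. Red points are the 8 sleep-deprived and blue points the 9 sleeping mice, open points are the 4 arrays with a number conflict and the triangle is array 27. The 8 sleep-deprived mice lie above all sleeping mice for Acta2, Vcan, Calr and Ccl9.

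Genes of contractile and matrix-bearing cells stood among those that rose. Acta2, the actin of smooth muscle and myofibroblasts, had the smallest p of all genes. It ranged from 12.09 through a median of 12.30 to 12.37 in sleep-deprived mice and from 11.87 through 11.93 to 12.09 in sleeping mice. The highest sleeping mouse, array 15, and the lowest sleep-deprived mouse, array 81, met at the edge of the groups. The difference was 0.30 ± 0.05 (SE, n = 8 and 9, limma adjusted p = 0.000906), and it was 0.31 in each run. Acta2 was also called when the 4 arrays, array 27, or all 16 arrays of the series with a number conflict were left out, and was the single gene called without the 4 arrays and array 27 together.

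Vcan, the large matrix proteoglycan versican, ranged from 7.12 through 7.45 to 7.81 in sleep-deprived mice and from 6.67 through 6.91 to 7.07 in sleeping mice. The groups did not overlap, and the difference was 0.55 ± 0.11 (SE, limma adjusted p = 0.00858). Itga7, the laminin-binding integrin alpha chain of muscle, was 0.50 ± 0.10 higher (limma adjusted p = 0.00858). Lrp2, the endocytic receptor megalin, averaged 9.06 against 8.62, a difference of 0.43 ± 0.08 (limma adjusted p = 0.00519). Its 2 highest sleeping mice, arrays 32 at 8.92 and 15 at 8.81, are among those with a number conflict under the assumed order.

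Of 12 measured smooth muscle genes, Acta2 was called and none fell, and the median difference of the list was 0.20 against -0.01 for all genes. Values were higher for 9 of the 12, and 5 had an unadjusted p under 0.05, where 46.3% of all genes were above 0, 3.33% were higher at that p and 0.0425% rose. Actg2, the enteric smooth muscle actin, was 0.54 ± 0.12 higher with a limma adjusted p of 0.032, the actin-binding calponin Cnn1 was 0.39 ± 0.10 higher (adjusted p = 0.0595), and Tagln, which encodes transgelin, 0.29 ± 0.09 higher (adjusted p = 0.155). Array 81 had the lowest value of the sleep-deprived mice for Acta2, Actg2, Cnn1 and Tagln. Without the 4 arrays the list median was 0.24. The heavy chain Myh11 differed by 0.04 and the light chain Myl9 by -0.11, so that the higher values were not shared by the whole list. The list median was 0.10 in the first run and 0.29 in the second. Its mean level was highest in array 25, at 0.39, the mouse in which genes of squamous epithelium were also highest, at 2.58, and the part of those cells in the smooth muscle values was not tested. The list of 30 collagens, elastic fibre genes and their enzymes had 0 called genes and a median of 0.10, with Eln, elastin, at 0.35 ± 0.13 and its groups apart (limma adjusted p = 0.353).

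**Figure D2:**
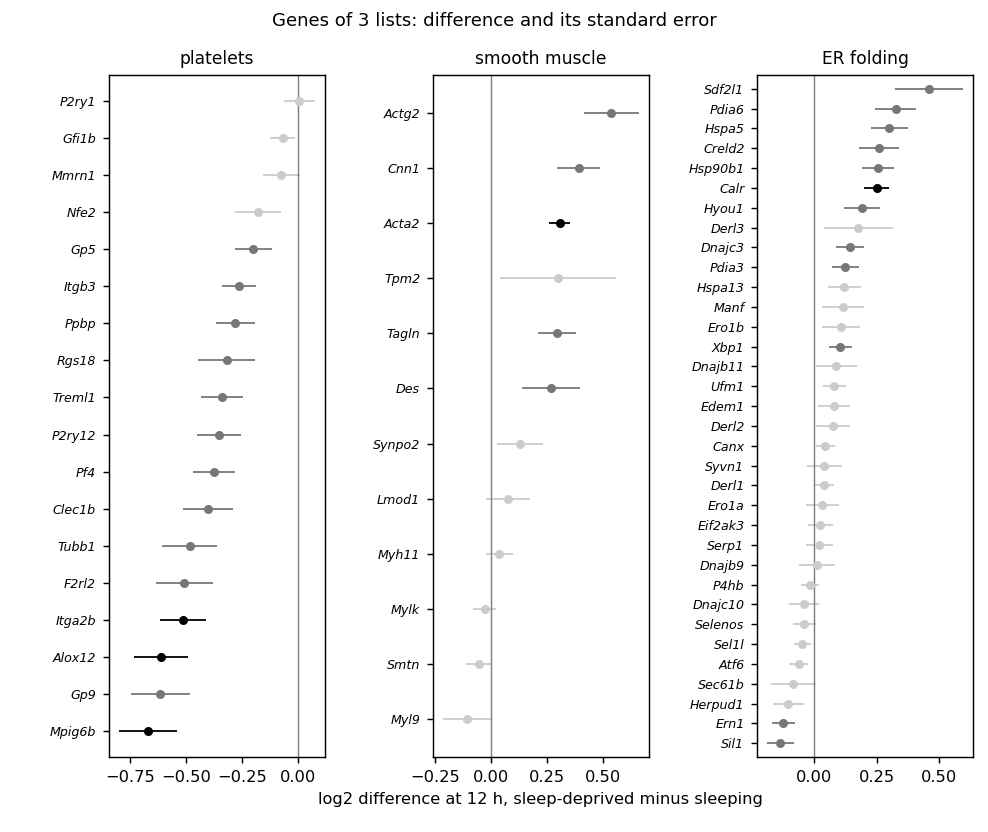
Difference in log2 intensity between sleep-deprived and sleeping mice at 12 h (x axis, bars are 1 standard error) for the measured genes of the platelet, smooth muscle and endoplasmic reticulum (ER) folding lists. Black marks an adjusted p under 0.01, dark grey an unadjusted p under 0.05 and light grey neither. All but 1 of the 18 platelet genes lie below 0.

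Some platelet and megakaryocyte genes fell in sleep-deprived mice. Of 18 measured genes 3 fell, none rose, and 17 had values below 0, with 14 at an unadjusted p under 0.05. Over all genes 0.0797% fell, 53.7% were below 0 and 5.97% were lower at an unadjusted p under 0.05. The median difference was -0.34, against -0.01 for all genes. Itga2b, the alpha chain of the fibrinogen receptor, ranged from 7.41 through 7.66 to 8.09 in sleep-deprived mice and from 7.92 through 8.23 to 8.50 in sleeping mice, and differed by -0.51 ± 0.10 (SE, limma adjusted p = 0.00932). Mpig6b, an inhibitory receptor of megakaryocytes, ranged from 6.44 through 6.83 to 7.38 against 7.31 through 7.47 to 7.85, a difference of -0.67 ± 0.13 (limma adjusted p = 0.00858). Alox12, the platelet 12-lipoxygenase, differed by -0.61 ± 0.12 (limma adjusted p = 0.00858). In all 3 genes array 25 was the highest sleep-deprived mouse, and arrays 6, 7, 8, 24 and 27 lay below every sleeping mouse. Array 25 alone reached into the sleeping range of Mpig6b and Alox12, and arrays 25, 26 and 81 into that of Itga2b.

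Other defining platelet genes had differences of the same sign that did not pass. Gp9, a chain of the von Willebrand factor receptor, differed by -0.61 ± 0.13 (limma adjusted p = 0.0159), platelet factor Pf4 by -0.38 ± 0.09 (adjusted p = 0.056), beta-tubulin Tubb1 by -0.48 ± 0.12 (adjusted p = 0.0681) and Ppbp by -0.28 ± 0.09 (adjusted p = 0.218). The mean level of the list, relative to the 17 mice, ran from -0.41 to 0.15 with a median of -0.19 in sleep-deprived mice and from -0.03 to 0.32 with a median of 0.17 in sleeping mice. Without the 4 arrays 1 gene of the list was called, Itga2b, and without array 27 none was. The list median was -0.41 without the 4 arrays, -0.32 without array 27, and -0.37 and -0.26 in the 2 runs. After 3, 6 and 9 h it was -0.04, 0.11 and -0.12. A pair of further called genes are also expressed in blood cells. Nrgn, the calmodulin-binding neurogranin, differed by -0.52 ± 0.10 (limma adjusted p = 0.00858) and Mfsd2b, the sphingosine-1-phosphate exporter of red cells and platelets, by -0.52 ± 0.11 (adjusted p = 0.00932). The 7 measured genes of red cell precursors were all below 0, with a median of -0.29, 0 called and 5 at an unadjusted p under 0.05. Of all genes 53.7% were below 0 and 5.97% were lower at that p. Slc4a1, the band 3 anion exchanger, was at -0.54 ± 0.16 (limma adjusted p = 0.174). Blood volume left in the lung was not measured, and its part in these values was not tested.

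Clock repressors were mostly lower and activators mostly higher, and Ciart passed the test. Of 9 measured repressors Ciart fell and 8 had values below 0 (median -0.29), of 4 activators and Ror partners none passed and 3 had values above 0 (median 0.39), and of 5 output genes none passed (median -0.28). Among all genes 0.0797% fell, 0.0425% rose, 53.7% were below 0 and 46.3% above, with a median of -0.01. Promoters of Ciart and Arntl are shown because their differences had opposite signs and they carry elements bound by the 2 arms of the clock. They are taken from RefSeq (GRCm38.p6), 250 bases before to 50 after the start site, read 5′ to 3′ on the gene's strand. Capitals mark E-boxes (CACGTG), the element of the activators, in Ciart at chr3:95882179-95882478 on the minus strand, and the Ror element (TAGGTCA), bound by Ror activators and Nr1d repressors, in Arntl at chr7:113207261-113207560 on the plus strand.
Ciart: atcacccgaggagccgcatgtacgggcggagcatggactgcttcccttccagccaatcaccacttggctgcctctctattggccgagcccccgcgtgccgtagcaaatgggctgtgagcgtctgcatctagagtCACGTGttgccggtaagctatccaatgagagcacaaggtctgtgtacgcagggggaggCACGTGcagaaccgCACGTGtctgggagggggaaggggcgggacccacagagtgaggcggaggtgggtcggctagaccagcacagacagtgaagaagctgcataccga
Arntl: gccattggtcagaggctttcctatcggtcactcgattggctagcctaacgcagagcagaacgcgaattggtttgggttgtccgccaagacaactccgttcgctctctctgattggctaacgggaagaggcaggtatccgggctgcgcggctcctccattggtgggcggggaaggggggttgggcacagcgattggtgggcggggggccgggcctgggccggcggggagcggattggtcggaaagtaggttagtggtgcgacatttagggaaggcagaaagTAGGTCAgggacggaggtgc
The 3 E-boxes of Ciart begin at -116, -58 and -44 from the start site, and the Ror element of Arntl begins 30 bases past its start site. RefSeq lists another promoter of Arntl, at chr7:113207215-113207514, in which no Ror element was found. An E-box was found on either strand in 6 of 20 promoters that RefSeq lists for 15 of the 18 clock genes (Bhlhe41, Ciart, Cry1, Per1 and Tef), and in 7.15% of all 32851 promoters. A Ror element was found in 2 of those 20 (Arntl and Nfil3) and in 2.61% of all promoters. The D-box (TTATGTAA) was found in 1 of the 20, that of Per3, against 0.938%, and the cyclic AMP element (TGACGTCA) in 1, that of Hlf, against 1.79%. Among 20 promoters of the 19 called genes that matched, 2 held an E-box, Calr and Ciart.

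Ciart, a repressor that binds the Arntl and Clock complex, ranged from 8.64 through 9.12 to 9.69 in sleep-deprived mice and from 9.61 through 9.86 to 10.18 in sleeping mice. Array 8, at 9.69, was the single sleep-deprived mouse that reached into the range of the sleeping group, and array 81 was the lowest of all. The difference was -0.67 ± 0.13 (SE, n = 8 and 9, limma adjusted p = 0.00858), and -0.68 without the 4 arrays (adjusted p = 0.0213). A second probe set of Ciart gave -0.69 (adjusted p = 0.018).

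Arntl, also named Bmal1, was higher in each of the 8 sleep-deprived mice than in each of the 9 sleeping mice, from 6.25 through 6.54 to 7.51 against 5.45 through 5.75 to 6.22. Its difference of 0.86 ± 0.24 had an adjusted p of 0.13 in limma with the spread estimated over all hours, and of 0.0252 with the 17 arrays fitted alone. Clock was 0.27 ± 0.06 higher (adjusted p = 0.027) and Npas2 0.52 ± 0.28 higher (adjusted p = 0.751). Clock ranged from 9.98 to 10.25 in sleep-deprived and from 9.69 to 10.04 in sleeping mice, with overlap from array 27 on one side and arrays 32 and 15 on the other. In Npas2 the overlap came from arrays 24 and 8, at 6.62 and 6.66, against a highest sleeping mouse at 6.73. When all 16 arrays with a number conflict, over all hours, were left out, Clock, Arntl and Npas2 passed, with adjusted p-values of 0.00435, 0.000179 and 0.00148. Rora differed by -0.03 ± 0.06, and by 0.03 without the 4 arrays.

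**Figure D3:**
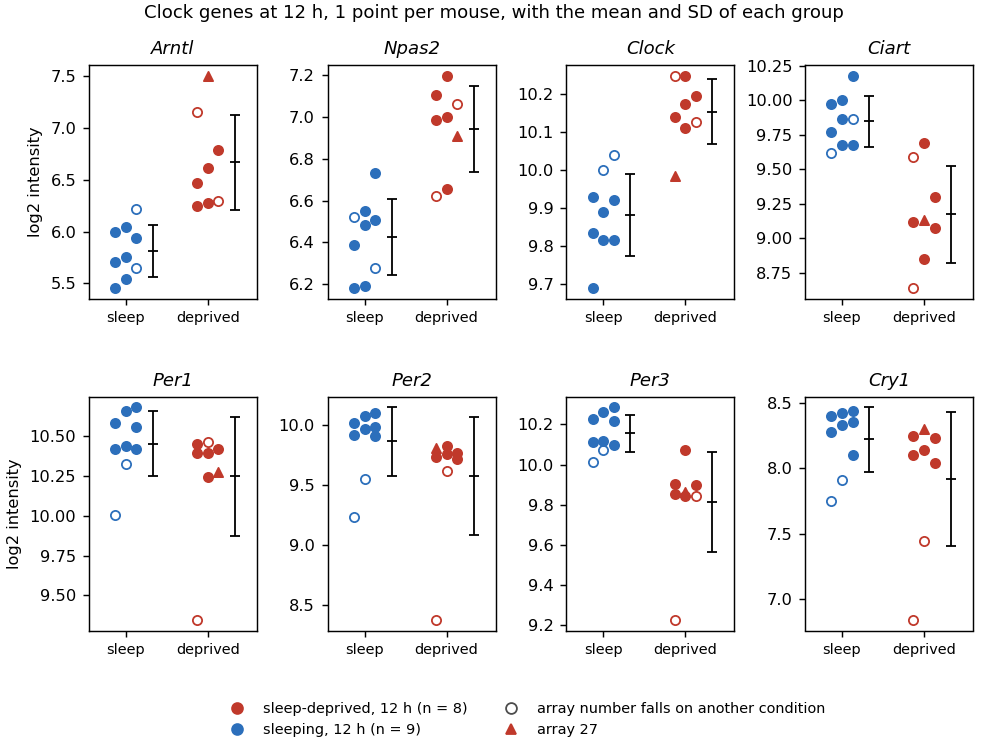
Log2 intensity (y axis) of 8 clock genes in the 9 sleeping and 8 sleep-deprived mice at 12 h, 1 point per mouse, with the mean and SD of each group at the right of its points. Open points are arrays with a number conflict, and the triangle is array 27. Arntl separates the groups, and array 81 lies far below the others in Per1, Per2 and Per3.

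The Per and Cry repressors were lower on average, and array 81 carried part of this. Per2 ranged from 8.37 through 9.75 to 9.83 in sleep-deprived mice and from 9.24 through 9.97 to 10.11 in sleeping mice, and array 81 was the mouse at 8.37. The difference was -0.29 ± 0.22 (limma adjusted p = 0.903), and -0.23 without the 4 arrays. Per3 differed by -0.34 ± 0.18 (adjusted p = 0.715) and by -0.28 without them, Cry1 by -0.30 ± 0.15 (adjusted p = 0.697) and -0.16, and Per1 by -0.21 ± 0.21 (adjusted p = 0.966) and -0.17. Over the 9 repressors the median moved from -0.29 to -0.17 when the 4 arrays were left out. Bhlhe41 was at -0.46 ± 0.17 (adjusted p = 0.418), Cry2 at -0.17 ± 0.08 (adjusted p = 0.566) and Bhlhe40 at 0.01. Among the outputs, the D-box activators Hlf and Tef were at -0.29 ± 0.15 and -0.19 ± 0.15, the cell cycle kinase Wee1 at -0.28 ± 0.13 and the ubiquitin protease Usp2 at -0.37 ± 0.16. The D-box repressor Nfil3, at 0.35 ± 0.18, had the opposite sign. Their adjusted p-values lay between 0.529 and 0.918.

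Factors that fold proteins in the ER were mostly higher in sleep-deprived mice, and 1 of 34 passed. Calr, the calcium-binding lectin chaperone calreticulin, ranged from 11.71 through 11.86 to 11.91 in sleep-deprived mice and from 11.54 through 11.59 to 11.67 in sleeping mice. The groups did not overlap, and the difference of 0.25 ± 0.05 (SE, limma adjusted p = 0.00858) was 0.24 without the 4 arrays. Hspa5, the master chaperone BiP, ranged from 11.38 through 11.57 to 11.61 against 11.05 through 11.24 to 11.36, again without overlap, and differed by 0.30 ± 0.07 (adjusted p = 0.049). Hsp90b1 was 0.25 ± 0.06 higher (adjusted p = 0.0537) and the disulphide isomerase Pdia6 0.33 ± 0.08 higher (adjusted p = 0.0576). Sensors of the unfolded protein response did not share this, with Atf6 at -0.06 ± 0.04, Ern1 at -0.12 ± 0.05 and Eif2ak3 at 0.02 ± 0.05. The median over the 34 genes was 0.08, with 25 above 0, 10 at an unadjusted p under 0.05 in the higher and 2 in the lower direction. The shares over all genes were 46.3% above 0, 3.33% higher and 5.97% lower at that p, and 0.0425% called higher. After 3, 6 and 9 h the list median was 0.20, 0.02 and 0.08.

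Chaperones of the cytosol had 0 called of 39, a median of 0.07, and 31 above 0, where 46.3% of all genes were. Hsp90aa1 was at 0.24 ± 0.09 (limma adjusted p = 0.347) and the co-chaperone Stip1 at 0.18 ± 0.09 (adjusted p = 0.695). The cold-inducible RNA-binding proteins, which rise when cells cool, both had values below 0. Rbm3 ranged from 11.34 through 11.64 to 12.10 in sleep-deprived mice and from 12.01 through 12.13 to 12.18 in sleeping mice, with array 81 the single sleep-deprived mouse inside the sleeping range. It differed by -0.41 ± 0.10 (limma adjusted p = 0.0674), and by -0.48 without the 4 arrays (adjusted p = 0.0499). Cirbp differed by -0.40 ± 0.16 (adjusted p = 0.497), by -0.11 in the first run and -0.71 in the second. The 18 glucocorticoid-induced genes had a median of 0.03 (0.09 without the 4 arrays) and 0 called, and array 81 was lowest of the sleep-deprived mice at a mean level of -0.82.

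The largest called difference was that of Alox12e, from the list of lipoxygenases, cyclooxygenases and eicosanoid synthases. This list of 18 measured genes had a median of 0.03, with Alox12e called higher and Alox12 called lower. At an unadjusted p under 0.05 it had 2 genes higher and 2 lower. Alox12e, an epidermal 12-lipoxygenase, ranged from 4.95 through 5.73 to 6.88 in sleep-deprived mice and from 4.44 through 4.70 to 5.01 in sleeping mice. Array 24, at 4.95, was the single sleep-deprived mouse below the highest sleeping mouse. The gene was measured at low intensity, as all values but that of array 81 lay below the array medians of 6.64 to 6.74. The difference was 1.03 ± 0.18 (SE, limma adjusted p = 0.00187), and it was 1.10 and 0.97 in the 2 runs. Alox12e is also a member of the list of squamous epithelium, where it was the 1 called gene of 18. That list had a median of 0.64, with 17 above 0 and 5 at an unadjusted p under 0.05, and Krt5, the keratin of basal cells, at 1.77 ± 0.59 (adjusted p = 0.277). Of all genes 0.0425% were called higher and 0.0797% lower, and 46.3% were above 0. At that unadjusted p 3.33% were higher and 5.97% lower. The list level was highest in array 25 (2.58) and array 26 (1.11) and lay between -0.41 and 0.37 in the other sleep-deprived mice, against -0.59 to 0.49 in sleeping mice. Its median was 0.07 in the first run and 0.98 in the second. The part of squamous cells in the Alox12e value was not tested.

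Of the other called genes, several encode cell surface or signalling proteins. Scel, the cornified envelope precursor sciellin, ranged upwards from 9.70 around a median of 9.84 in sleep-deprived mice and from 10.09 through 10.17 to 10.39 in sleeping mice, a difference of -0.36 ± 0.06 without overlap (limma adjusted p = 0.00187). The guidance receptors Robo1 and Plxna4 differed by -0.30 ± 0.06 and -0.26 ± 0.05 (adjusted p = 0.00788 and 0.00958). Robo1 overlapped through 1 sleeping mouse, array 15 at 8.79. Wnt10b, a secreted Wnt ligand, differed by -0.60 ± 0.12 (adjusted p = 0.00858), and array 81 at 6.61 was the single sleep-deprived mouse in the sleeping range of 6.48 to 6.80. All sleep-deprived values of Wnt10b lay below the array medians of 6.64 to 6.74. Susd4, a membrane inhibitor of complement, differed by -0.43 ± 0.08 (adjusted p = 0.00533).

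Pir, the nuclear iron-binding protein pirin, had the smallest called difference, -0.21 ± 0.04, yet its groups did not overlap (limma adjusted p = 0.00606). The same held for Mpv17l, a peroxisomal membrane protein, at -0.31 ± 0.06 (adjusted p = 0.00858) and for Wfdc10 at -0.37 ± 0.08 (adjusted p = 0.00958), which was at 0.0539 without the 4 arrays. BC051142 was at -0.58 ± 0.10 (adjusted p = 0.00375). It was measured at low intensity, from 5.53 to 6.64 over the 17 mice, against array medians of 6.64 to 6.74. Among those that rose, Ccl9, a CC chemokine, ranged from 8.08 through 8.41 to 8.90 against 7.45 through 7.75 to 8.03, a difference of 0.70 ± 0.14 without overlap (limma adjusted p = 0.00932). H2-T24, a non-classical class I histocompatibility gene, was 0.33 ± 0.07 higher (adjusted p = 0.00932), and it belongs to a family of similar sequences whose probes may share signal.

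Leaving out the 4 arrays brought in 6 genes that had not passed with them. These were Cyp1a1, Klf10, Acot1, Ggt5, Grp and Sdc3. Cyp1a1, the enzyme induced through the aryl hydrocarbon receptor, ranged from 8.14 through 8.38 to 8.78 in sleep-deprived and from 8.44 through 9.16 to 10.44 in sleeping mice, and its difference moved from -0.80 ± 0.18 (adjusted p = 0.027) to -1.03 (adjusted p = 0.00835). The transcription factor Klf10 moved from 0.42 to 0.56, the acyl-CoA thioesterase Acot1 from 0.55 to 0.75, the gastrin-releasing peptide Grp from -0.49 to -0.62, the heparan sulphate proteoglycan Sdc3 from -0.29 to -0.37 and the gamma-glutamyltransferase Ggt5 from 0.31 to 0.37. With all 16 conflicting arrays left out of every hour, the 12 h differences are the same as without the 4 but the spread is smaller, and 95 genes were called (0.505%), 51 higher and 44 lower, 19 of them among the 23. In the lists, that fit called 4 smooth muscle genes higher (Acta2, Actg2, Cnn1 and Tagln), 4 platelet genes lower (Alox12, Gp9, Itga2b and Mpig6b), 3 clock activators higher, 3 ER folding genes higher (Calr, Hspa5 and Creld2, the last named after its value was seen) and Rbm3 lower.

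Markers of other cells and organs were read beside these results. Across 38 lists with 672 genes, 7 genes were called, all named above, against 0.122% of all genes, and the lists were chosen with earlier results known. The 12 measured T cell genes had a median difference of 0.06, which became -0.35 without array 27. In that mouse the T cell level was 2.73, the level of thymus and lymph node genes 2.05 and that of cell cycle genes 1.31, and no other sleep-deprived mouse exceeded 0.05, -0.04 and -0.03. Dntt, the template-free DNA polymerase of thymocytes, was at 9.55 in array 27 and between 3.54 and 3.89 in the 16 other mice. The cell cycle list had a median of 0.19, which became 0.00 without array 27, and Mcm7, a helicase subunit of replication, went from 0.28 (limma adjusted p = 0.047) to 0.20. B cell genes (12, median -0.37) and NK cell genes (12, median -0.30) had 0 called, and a median of -0.31 without array 27 for each. The 17 neutrophil and monocyte genes had a median of -0.22 and 0 called. The antimicrobial granule gene Ngp was at -0.70 ± 0.18 (adjusted p = 0.0735), Camp at -0.47 ± 0.12 (adjusted p = 0.0716) and Ltf, lactoferrin, at 0.57 ± 0.21 (adjusted p = 0.35).

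**Figure D4:**
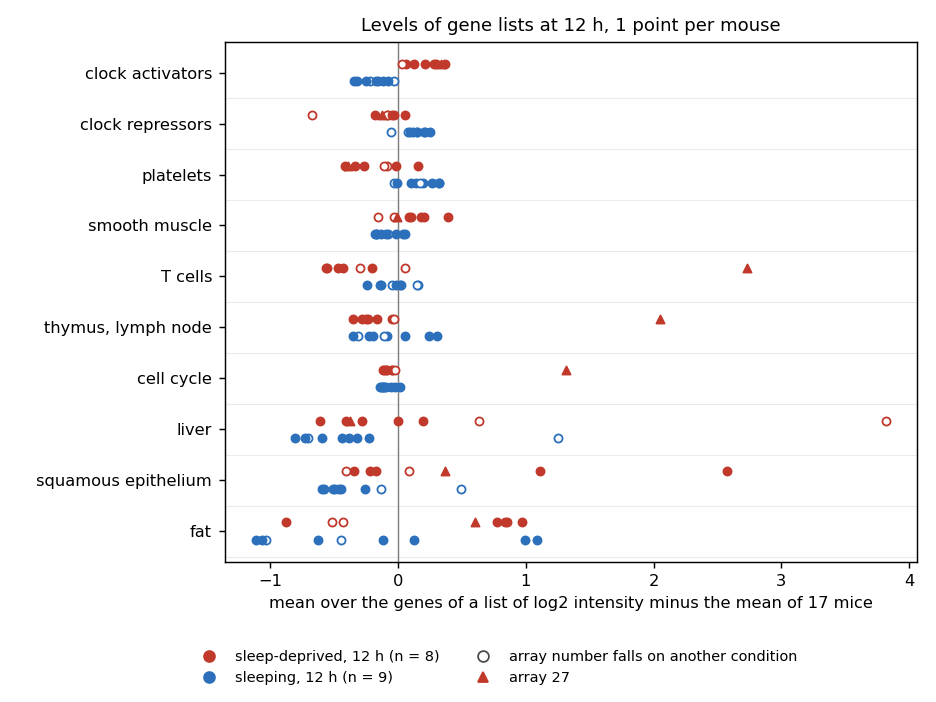
Mean level of the genes of 10 lists in each mouse at 12 h (x axis, log2 intensity relative to the mean of the 17 mice), red for sleep-deprived and blue for sleeping mice. Array 27 (triangle) stands at 2.73 for T cells, 2.05 for thymus and lymph node and 1.31 for the cell cycle, and array 81 (open) at 3.82 for liver.

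Liver transcripts stood high in arrays 81 (3.82) and 15 (1.25), both with a number conflict. The 12 liver genes had a median of 0.65, which became 0.18 without the 4 arrays. Alb, albumin, was at 12.68 in array 81 and between 6.88 and 10.30 in the other sleep-deprived mice. Fat genes varied in both groups, from -0.87 to 0.97 in sleep-deprived and from -1.11 to 1.09 in sleeping mice, with a median difference of -0.07 in the first run and 0.69 in the second. Ucp1, the uncoupling protein of brown fat, was at 2.20 ± 1.10 (limma adjusted p = 0.679). Genes of fatty acid use had a median of 0.21 with 0 called and 23 of 25 above 0, where 46.3% of all genes were. None of the epithelial, endothelial or macrophage marker genes passed the test. Their median differences were 0.00 for alveolar type 2 cells (15 genes), -0.03 for alveolar type 1 cells (9), 0.00 for airway epithelium (19), -0.03 for endothelium (19) and 0.05 for macrophages (14). Of the 19 endothelial genes 6 were lower and 1 higher at an unadjusted p under 0.05, against 5.97% and 3.33% of all genes. Interferon-induced genes (25) had a median of 0.04, inflammatory genes driven by NF-kB (25) 0.00, immediate early genes (26) 0.07 and targets of Atf4 (23) 0.04, again with 0 called. The same count held for MHC class II (-0.15), heart muscle (0.06, and 0.20 without the 4 arrays), cholesterol synthesis (0.02), glycolysis and hypoxia (0.00), antioxidant enzymes (-0.06), the proteasome (0.03) and the respiratory chain (0.02).

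The difference at 12 h was next compared with that at 3 h, 6 h and 9 h, which rest on other mice. At 12 h it differed from 3 h for 43 genes (0.228%), 8 above and 35 below, and for 19 without the 4 arrays. Against 6 h it differed for 1 gene (0.00531%) and against 9 h for 0 (0%), with 1979 and 1870 genes at an unadjusted p under 0.05 in limma. For comparison, 1242 genes (6.6%) were called after 3 h, 5 after 6 h and 415 (2.21%) after 9 h. All 23 genes called at 12 h had the same sign after 9 h, 17 had it after 3 h and 16 after 6 h. The share of all genes with the same sign at both hours was not counted, so these counts have no background. Arrays 24 and 32, labelled 12 h, were nearest to groups of 9 h. Also called were Ciart, Wnt10b, Lrp2, Calr and Pir at 3 h and Susd4, Wnt10b, BC051142, Acta2, Lrp2 and Calr at 9 h.

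Ciart was the single called gene whose difference at 12 h differed from another hour. Its values were 0.76 ± 0.13 (SE) after 3 h, 0.12 ± 0.14 after 6 h, -0.41 ± 0.13 after 9 h and -0.67 ± 0.13 after 12 h, and the 12 h value lay 1.44 ± 0.19 below that of 3 h (limma adjusted p = 3.97e-06). The heat shock protein Hsph1 was 1.99 ± 0.19 higher in sleep-deprived mice at 3 h and 0.31 ± 0.19 at 12 h, a change of -1.67 ± 0.27 (adjusted p = 0.000286). The co-chaperone Stip1 went from 0.96 ± 0.09 to 0.18 ± 0.09 (change -0.78 ± 0.13, adjusted p = 0.000424), the ceramidase Acer2 from 0.30 ± 0.06 to -0.21 ± 0.06 (change -0.51, adjusted p = 0.000924) and the death receptor Tnfrsf25 from 0.44 ± 0.06 to -0.04 ± 0.06 (change -0.48, adjusted p = 0.00184). Egr1, an immediate early transcription factor, was the gene that differed from 6 h, at -1.06 ± 0.16 there and 0.27 ± 0.16 at 12 h (change 1.33 ± 0.23, adjusted p = 0.00536). Without array 27, or without the 4 arrays, 0 genes differed between 12 h and 6 h in limma, with 1873 and 1582 at an unadjusted p under 0.05. For the platelet genes the change was not past the threshold. Mpig6b was at 0.01 ± 0.13, 0.11 ± 0.14, -0.35 ± 0.13 and -0.67 ± 0.13 over the 4 hours, with an adjusted p of 0.0587 for 12 h against 3 h and 0.176 against 6 h.

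**Figure D5:**
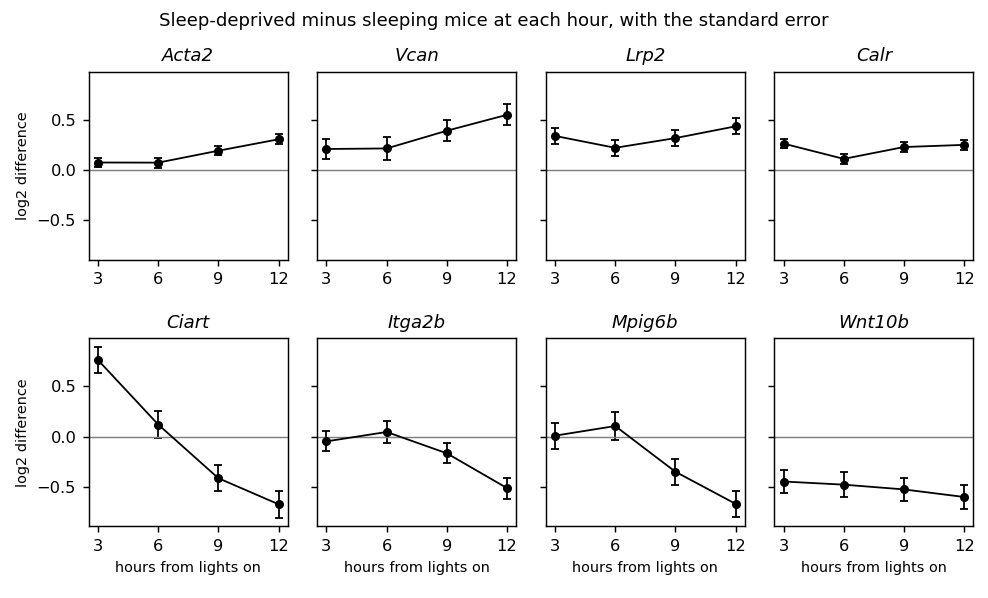
Difference in log2 intensity between sleep-deprived and sleeping mice (y axis) at 3, 6, 9 and 12 h from lights on (x axis) for 8 of the called genes, with bars of 1 standard error. Lines join hours that rest on different mice. Ciart goes from 0.76 at 3 h to -0.67 at 12 h, and Wnt10b stays between -0.45 and -0.60.

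Over all genes, mice of both groups varied to a similar degree, while some lists differed. The SD in sleep-deprived mice over that in sleeping mice had a median of 1.05 over all genes, 1.01 without the 4 arrays and 0.93 without the 4 arrays and array 27. The ratio was 6.62 for T cell genes, 3.86 for thymus and lymph node genes and 3.76 for cell cycle genes, where array 27 stood apart, and 2.32 for liver genes, where array 81 did. For squamous genes it was 2.51, and 3.92 without the 4 arrays and array 27.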

How the data were processed

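Lung RNA was hybridized to Affymetrix Mouse Gene 1.0 ST arrays, 1 per mouse. The authors deposited 35556 probe sets as log2 intensity, summarised with RMA per the labels. The values lack their decimal point, which was put back behind digit 1, or behind digit 2 of values that begin with 1, giving 2.27 to 13.85 and array medians at 12 h of 6.64 to 6.74. Nothing else was normalized. The number of mice limits the precision. A single symbol is annotated to 21218 probe sets, more than 1 to 1881 and no symbol to 12457, and genes without a single-symbol probe set are not analysed here. A gene is its probe set of highest mean over 69 arrays.

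Groups follow the labels. Limma 3.58.1 (R 4.3.3) was fitted to the means of 8 groups, sleep-deprived and sleeping at 3, 6, 9 and 12 h (69 arrays, 9 baseline arrays left out, as in the study), so that all groups share the estimate of spread. P-values were adjusted by Benjamini-Hochberg over all probe sets with a threshold of 0.01. The fit was tested on simulated data. Lists were described by counts and medians, without a list test. Named genes are those called, all clock and cold-inducible genes, up to 4 per list with the smallest p, up to 5 per contrast of hours, and up to 10 in each direction called without the 4 arrays. Creld2, Myh11, Myl9, Tubb1, Pf4, Ppbp, Atf6, Ern1 and Eif2ak3 were named outside this rule, after their values were seen. The members and lists were chosen with earlier results of these data known. Alternatives left out arrays, changed the groups fitted, and used the run as a block, trended and robust variances, array weights, an intensity filter of 6 and any probe set of a gene. Tables were read with pandas 2.3.3 and numpy 2.4.6 in Python 3.11.15 and drawn with matplotlib 3.10.9.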

Additional observations from a re-analysis of the deposited data

Results flagged for a closer look

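Of 160 sets of values at 12 h tested for a single mouse far from the rest of its group, 21 held one. Chance would give about 1 in 20 of independent sets. These sets share mice, and lists share genes with single-gene sets, so the 21 cannot be set against that rate. Array 81, labelled sleep-deprived, accounts for most. It was low for Per1 (9.35), Per2 (8.37), Per3 (9.23), Cry2 (9.47), Wee1 (8.63), Hlf (8.57) and Tef (9.33), and for the mean levels of clock repressors (-0.68), clock outputs (-0.72), cytosolic chaperones (-0.08) and glucocorticoid-induced genes (-0.82). It was high for BC051142 (6.11) and for liver genes (3.82). Array 27, also labelled sleep-deprived, was high for T cells (2.73), thymus and lymph node (2.05) and the cell cycle (1.31). Among sleeping mice, array 15 was low for Robo1 (8.79) and high for liver genes (1.25), array 32 high for squamous epithelium (0.49), array 16 high for extracellular matrix (0.11) and array 19 low for endothelium (-0.07).

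The difference between sleep-deprived and sleeping mice changed between hours, by a limma test of the change itself, for Ciart (-1.44, adjusted p = 3.97e-06), Hsph1 (-1.67, adjusted p = 0.000286), Stip1 (-0.78, adjusted p = 0.000424), Acer2 (-0.51, adjusted p = 0.000924) and Tnfrsf25 (-0.48, adjusted p = 0.00184) from 3 h to 12 h, and for Egr1 (1.33, adjusted p = 0.00536) from 6 h to 12 h. Without array 27, and without arrays 24, 81, 15 and 32, the count of genes that differed between 6 h and 12 h was 0 in limma (1873 and 1582 at an unadjusted p under 0.05). The causes were not tested.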

How the results depend on the processing

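Main counts were 23 genes (8 higher, 15 lower), 7 genes in lists, and 43, 1 and 0 genes for 12 h against 3, 6 and 9 h. Without array 27 the counts were 4 genes (3 higher, 1 lower), 2 in lists and 0 against 6 h. Without arrays 24, 81, 15 and 32 they were 4 in lists, 19 against 3 h and 0 against 6 h. Without these 4 and array 27 they were 1 gene (1 higher, 0 lower, where limma gave 990 lower at an unadjusted p under 0.05), 1 in lists, 23 against 3 h and 0 against 6 h. Without the 16 arrays they were 95 (51 higher, 44 lower), 19 in lists, 112 against 3 h, 55 against 6 h and 6 against 9 h. Array weights gave 313 (108 higher, 205 lower), 34 in lists, 348 against 3 h and 3 against 6 h. Fitting the 17 arrays alone gave 31 genes with 19 higher, 10 of them among the 23. All 78 arrays, and the filter at a mean of 6, each gave 2 against 6 h. Counts under the run block, trended and robust variances and any probe set stayed within 1.5 times the main counts.

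The 23 genes kept their sign in each alternative that tested them, the filter testing 21. These fits reuse the arrays on which the 23 were chosen, so the kept signs give no separate support. Of the 1783 comparisons of single genes with an alternative, 23 changed sign, none of a called gene. Without array 27, and without it and the 4 arrays, the differences became -0.34 and -0.41 for Cd4, -0.38 and -0.47 for Cd8a, -0.20 and -0.24 for Cd6, -0.22 and -0.23 for Thy1, -0.016 and -0.070 for Rag2, -0.10 and -0.13 for Dntt and -0.088 and -0.058 for Arpp21. With array weights they were -0.12 for Cd4, -0.21 for Cd8a, -0.12 for Cd6 and -0.081 for Thy1. Without the 4 arrays or the 16, Cyp51 was at -0.0053 and Rora at 0.034, and Rora at 0.076 without the 5. The T cell level difference, 0.06, was 0.13 without the 4 arrays, -0.33 without array 27 and -0.40 without the 5. The cause was not tested. No paired analysis was possible because the replicate numbers are array numbers, which the groups do not share.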
